A study of Mus musculus with 6 samples.

Results

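Genes of the proteasome, the protease that degrades ubiquitin-tagged proteins, were followed through T cell stimulation. Members were chosen by gene name: every gene whose symbol begins with Psma to Psmg followed by a digit, without the inducible catalytic subunits Psmb8, Psmb9 and Psmb10 and without pseudogenes, which gave 47 of the 49671 genes in the table. Of these, 46 are proteasome genes, and Psmc3ip, a factor of meiotic recombination, shares only the name. Stimulated cells (day 2) had spent 48 h with soluble anti-CD28 at 10 µg/ml and anti-CD3 bound to the plate at 1 µg/ml. Unstimulated cells (day 0) went straight into the RNA reagent, without culture. Effects of the antibodies, of culture and of time therefore cannot be told apart. A change with stimulation below means the difference between these groups. Both groups were splenic T cells of female F1 mice, enriched for CD3 on columns, with 3 libraries each that are labelled as biological replicates. The labels do not say whether each library came from a separate mouse, so the p-values measure the spread between these libraries. In both groups the mothers were C57BL/6 (mus) with a heterozygous deletion of Xist, whose RNA silences an X chromosome in female cells, and the fathers were M. m. castaneus (cast). The cross is a model of skewed X inactivation.

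Levels are the deposited RPKM (reads per kilobase per mega reads) for both alleles together. Allelic reads, which could be assigned to the mus or the cast copy of a gene, numbered 14.9, 18.04 and 20.2 M (mega) in the stimulated libraries, against 11.9, 9.61 and 11.7 M in the unstimulated libraries. The summed RPKM of 8 T cell markers ran from 773 to 831 in stimulated libraries, against 704 to 834 in unstimulated libraries, and the ranges overlapped. Within that list 2 genes rose (Cd2 and Cd5), 3 fell (Cd3e, Cd3g and Cd247) and 3 did not pass by the test described below. RNA of other blood cells was also present, mostly in the unstimulated libraries. All 10 B cell markers, all 8 myeloid markers and all 6 NK markers fell with stimulation by the test described below, as did 7 of the 8 tested erythroid and platelet markers. The 8 myeloid markers summed to between 0.960 and 2.59 RPKM in stimulated libraries, against 1099 to 3285 RPKM in unstimulated libraries, and Adgre1, a macrophage receptor, was listed at 0 in all 3 stimulated libraries. The 10 B cell markers summed to between 61.3 and 118 RPKM in stimulated libraries, against 723 to 1111 RPKM in unstimulated libraries. The NK markers summed to between 7.72 and 12.3 RPKM in stimulated libraries and between 237 and 336 RPKM in unstimulated libraries. Erythroid and platelet markers summed to between 2.13 and 14.6 RPKM in stimulated libraries, against 86.4 to 1407 RPKM in unstimulated libraries. All results below are from bulk RNA, in which fewer cells of a type and less RNA per cell cannot be told apart, and the part of these other cells in the proteasome results was not tested.

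The proteasome is a barrel closed by caps. The barrel, or core particle, stacks outer rings of alpha subunits, which gate the entrance, on inner rings of beta subunits, a few of which cut the protein chain. The cap, or regulatory particle, has a base of ATPases and scaffold proteins that unfolds the substrate and pushes it into the barrel, and a lid that removes ubiquitin. Smaller activators can replace the cap, and dedicated chaperones help the rings and the base to assemble. Activated T cells grow and divide fast, and immune cells can swap the constitutive catalytic subunits for inducible ones that are encoded by other genes and favour peptides for antigen presentation.

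RNA of the proteasome was higher in stimulated cells, in the core, the cap and most chaperones. The RPKM values of the 47 members summed to 2111, 2058 and 1969 in the stimulated libraries, against 857, 891 and 1012 in the unstimulated libraries. The means were 2046 ± 72.0 RPKM in stimulated cells and 920 ± 81.3 RPKM in unstimulated cells (SD, n = 3 each), a ratio of 2.22. A test was run for the 44 members, and 13288 genes in all, that reached 1 RPKM in at least 3 libraries (limma on log2(RPKM + 1), Benjamini-Hochberg adjustment over all tested genes). A fold change below is therefore on the log2(RPKM + 1) scale, which understates the change of low genes. Of the 44 members, 41 rose, 0 fell and 3 did not pass at an adjusted p of 0.05. Among all tested genes 31.2% rose and 48.9% fell, 80.1% together. The median log2 fold change was 1.14 over the tested members and -0.24 over all tested genes. A rise of at least 1 on the log2 scale was called for 26 members, against 12.4% of all tested genes. In 41 members every stimulated library lay above every unstimulated library, a pattern seen in 32.7% of all tested genes.

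**Figure D1:**
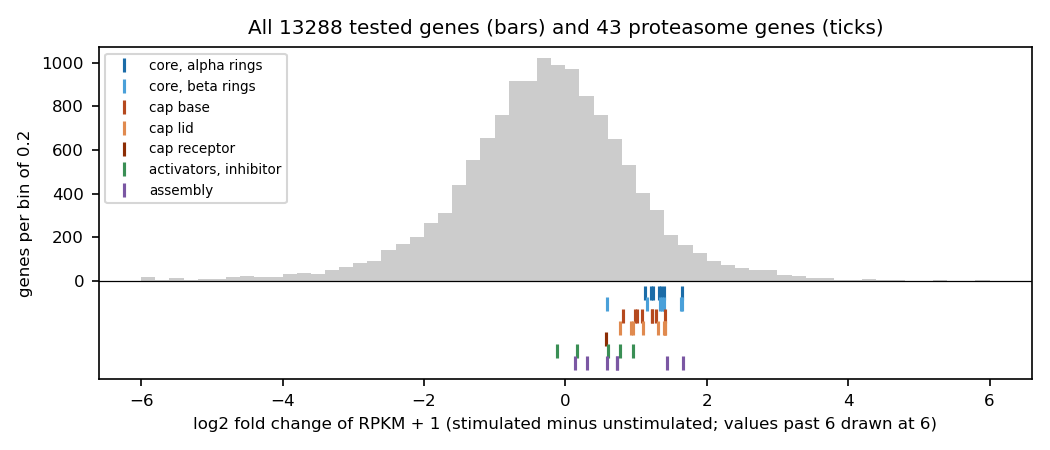
Log2 fold change of the 43 tested proteasome genes, stimulated over unstimulated, set against the distribution over all 13288 tested genes. The proteasome genes centre on 1.16 and the core genes on 1.35, against -0.24 for all tested genes.

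The scaling of the libraries sets the zero of these changes. Centring each library on its median moved the median of all tested genes to 0.02 and that of the members to 1.40, and quantile normalisation gave 0.04 and 1.17. Under both of these 43 of the 44 members rose. With the allelic reads of both alleles summed and scaled by TMM in edgeR, the median was -0.05 over all tested genes and 1.59 over the members. That test used only the reads assigned to an allele, from the same libraries as the RPKM. It called 39 of 43 tested members higher and 1 lower, and the lower one was Psmd6, a lid subunit described below. With library sizes alone in place of TMM, 38 were higher and 2 lower, Psmd4 being added.

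1 unstimulated library stood apart. Unstimulated replicate 3 had the highest RPKM of its group for all 14 tested core genes, all 17 cap genes and 39 of the 44 tested members, against 54.7% of all tested genes. It was also the highest in a list of 19 cell cycle genes, which summed to 1261, 1254 and 1262 RPKM in stimulated libraries, against 195, 201 and 423 RPKM in unstimulated libraries. All 19 of those genes rose with stimulation, by a median log2 fold change of 2.75. Unstimulated replicate 3 was also the highest of its group in the summed B cell (1111 RPKM), myeloid (3285 RPKM), NK (336 RPKM) and erythroid and platelet markers (1407 RPKM), and the lowest in the T cell markers (704 RPKM). Without that library, 42 of the 44 members rose. The part of these differences in the proteasome result was not tested.

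**Figure D2:**
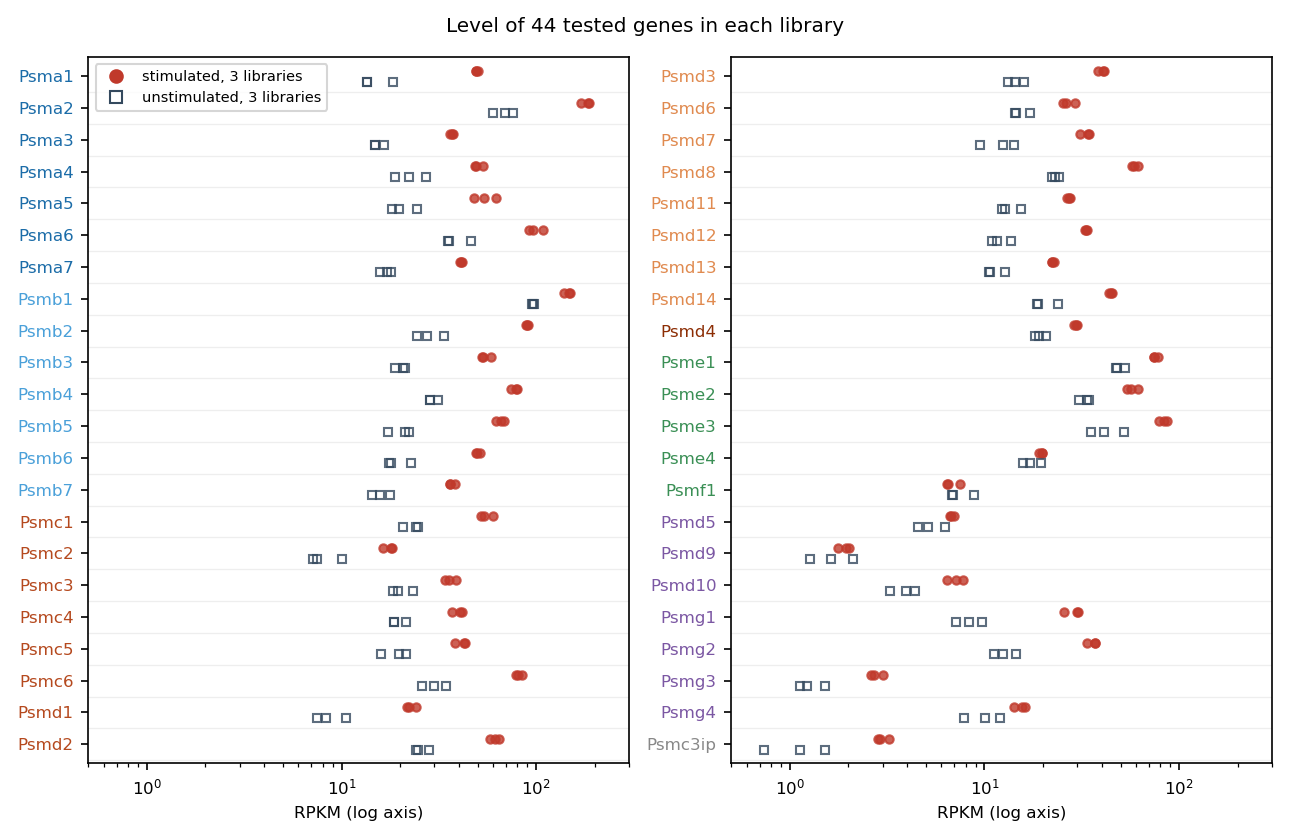
RPKM (log axis) of the 44 tested members in the 3 stimulated (circles, upper line of each row) and 3 unstimulated libraries (squares, lower line), with gene names coloured by role in the complex. All core and cap genes shown sit higher in all 3 stimulated libraries, while Psme4, Psmf1 and Psmd9, which belong to other classes, overlap between the groups.

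The sequence just upstream of the transcription start is shown for some members that rose, picked by size of change or role, and for Psmf1. Psma1, Psmb5 and Psmg1 rose by 1.65 or more on the log2 scale, Psmb6 is a catalytic subunit, Psmd2 and Psmd12 stand for the base and the lid, and Psmf1, the inhibitor, did not pass. Each is the 150 bases before the RefSeq start on GRCm38.p6, printed on the gene's strand. Capitals mark 2 CCAAT boxes in Psma1, the core of an antioxidant response element (TGACNNNGC) in Psmb5 and Psmb6, and an ETS core (CCGGAAG) in Psmd12, Psmd2 and Psmg1, on either strand. The Psmf1 stretch holds none of these motifs. Nor do the stretches of Psmb4 and Psma5, not printed here, which rose by 1.37 and 1.36 on the log2 scale. The same held for other members that rose: Psma4, Psma7, Psmc4, Psmc5, Psmd1, Psmd5, Psmd8, Psmd14, Psme1, Psme2, Psmg3 and Psmg4. Of the other members that did not pass, Psmd9 holds an antioxidant response element core there and Psme4 an ETS core. A link between motif and change was not tested.
Psma1 (chr7:114276117-114276266, minus strand): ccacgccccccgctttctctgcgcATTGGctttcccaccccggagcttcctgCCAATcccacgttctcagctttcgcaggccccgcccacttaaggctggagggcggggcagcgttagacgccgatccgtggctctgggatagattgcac
Psmb5 (chr14:54617996-54618145, minus strand): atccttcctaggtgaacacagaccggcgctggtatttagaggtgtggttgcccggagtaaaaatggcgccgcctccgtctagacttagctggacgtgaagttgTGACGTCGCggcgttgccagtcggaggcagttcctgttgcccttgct
Psmb6 (chr11:70525207-70525356, plus strand): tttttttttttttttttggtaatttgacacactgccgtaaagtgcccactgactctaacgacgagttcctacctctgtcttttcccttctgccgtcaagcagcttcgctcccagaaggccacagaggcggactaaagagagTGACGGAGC
Psmd2 (chr16:20651502-20651651, plus strand): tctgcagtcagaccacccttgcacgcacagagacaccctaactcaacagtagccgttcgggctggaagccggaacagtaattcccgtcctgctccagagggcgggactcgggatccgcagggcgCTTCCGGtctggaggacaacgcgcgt
Psmd12 (chr11:107479378-107479527, plus strand): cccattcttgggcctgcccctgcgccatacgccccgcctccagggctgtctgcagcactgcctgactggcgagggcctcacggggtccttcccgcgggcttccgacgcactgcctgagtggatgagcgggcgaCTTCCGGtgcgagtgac
Psmg1 (chr16:95990961-95991110, minus strand): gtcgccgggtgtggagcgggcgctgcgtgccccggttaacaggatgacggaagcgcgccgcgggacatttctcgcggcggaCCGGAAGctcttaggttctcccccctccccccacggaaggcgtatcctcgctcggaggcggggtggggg
Psmf1 (chr2:151741311-151741460, minus strand): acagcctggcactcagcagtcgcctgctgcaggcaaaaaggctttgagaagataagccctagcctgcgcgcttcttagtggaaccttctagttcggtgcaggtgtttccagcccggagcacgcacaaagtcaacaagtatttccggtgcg

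The motifs were counted on both strands in windows of 300 bases, from 250 before to 50 after the start, which were found for 38 members (41 windows). TGACNNNGC is the core of the element bound by Nfe2l1 and Nfe2l2, and it was found for 6 genes, Psmb5, Psmb6, Psmc6, Psmd12, Psmd9 and Psme4. That is 14.6% of the member windows, the same share as the 14.6% of 10729 windows of tested genes and close to the 12.4% of all 32851 windows. CCAAT was found in 31.7% of the member windows, against 37.7% of windows of tested genes and 37.4% of all windows. By class, 7 of 12 core genes and 4 of 14 cap genes held it. CCGGAAG was found in 36.6% of the member windows, against 18.5% of windows of tested genes and 8.86% of all windows. By class, 9 of 14 cap genes held it and 1 of 12 core genes, Psma6. No match overlapped a match of a different motif, though CCAAT matches overlapped each other in Psmd14. These are matches of letters and show no binding.

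The core particle rose as a whole: all 14 tested core genes rose, by a median of 1.35 on the log2 scale. Their RPKM summed to 1031 ± 39.7 in stimulated cells and 429 ± 39.3 in unstimulated cells (SD, n = 3 each), a ratio of 2.40. All 7 tested alpha ring genes rose, between 1.12 and 1.66 on the log2 scale, with limma adjusted p between 4.9e-06 and 0.00021. Psma1 led the ring, with 48.9, 50.4 and 49.0 RPKM in stimulated libraries, against 13.4, 13.6 and 18.5 RPKM in unstimulated libraries. Its log2 fold change was 1.66 ± 0.12 (SE; limma adjusted p = 2.5e-05), and its groups did not overlap. Psma2, the most abundant core gene of stimulated cells, had 185, 186 and 171 RPKM in stimulated libraries, against 60.3, 68.9 and 76.2 RPKM in unstimulated libraries. Its groups did not overlap, and the log2 fold change was 1.39 ± 0.09 (SE; limma adjusted p = 1.9e-05). Psma4, whose tail helps to close the gate, changed least in the ring, with 53.5, 48.5 and 48.9 RPKM in stimulated libraries, against 18.8, 22.3 and 27.2 RPKM in unstimulated libraries. That was still a log2 fold change of 1.12 ± 0.13 (SE; limma adjusted p = 0.00021). Psma3, Psma5, Psma6 and Psma7 rose by 1.21, 1.36, 1.32 and 1.24 on the log2 scale.

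All 7 tested beta ring genes rose as well, and the catalytic ones were among them. Psmb5 carries the chymotrypsin-like site and had 68.1, 65.9 and 62.0 RPKM in stimulated libraries, against 21.3, 17.3 and 22.2 RPKM in unstimulated libraries. Its groups did not overlap, and it rose by 1.65 ± 0.10 on the log2 scale (SE; limma adjusted p = 1.1e-05). Psmb6, with the caspase-like site, had 51.7, 49.5 and 49.2 RPKM in stimulated libraries, against 17.5, 17.9 and 22.7 RPKM in unstimulated libraries (log2 fold change 1.34 ± 0.10, SE; limma adjusted p = 3.1e-05). Psmb7, with the trypsin-like site, had 38.2, 36.1 and 36.2 RPKM in stimulated libraries, against 14.4, 15.7 and 17.8 RPKM in unstimulated libraries (log2 fold change 1.16 ± 0.08, SE; limma adjusted p = 2.3e-05). In GENCODE M21, 11.8% of the exon length of Psmb7 lies on exons of Nek6 on the opposite strand, and whether reads were counted by strand is not given in the sources used here. All 3 catalytic genes were higher in every stimulated library.

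The structural beta subunits spread further apart. Psmb2 had 88.7, 89.6 and 90.6 RPKM in stimulated libraries, against 27.4, 24.4 and 33.7 RPKM in unstimulated libraries, and rose by 1.63 ± 0.11 (SE; limma adjusted p = 2e-05). Psmb3 and Psmb4 rose by 1.40 and 1.37 on the log2 scale. Psmb1 changed least of the core genes, with 147, 149 and 139 RPKM in stimulated libraries, against 95.9, 95.7 and 97.9 RPKM in unstimulated libraries. The groups did not overlap, and the log2 fold change was 0.58 ± 0.05 (SE; limma adjusted p = 7.6e-05). Psmb1 was the most abundant core gene of unstimulated cells and Psmb7 the least abundant tested beta gene of both groups. Across the beta ring the SD of log2 RPKM between genes was 0.622, 0.667 and 0.638 in stimulated libraries and 0.897, 0.905 and 0.828 in unstimulated libraries. The smaller SD in stimulated libraries depends on Psmb1, the highest beta gene in both groups, which rose least. Without Psmb1, mean RPKM ran from 36.8 (Psmb7) to 89.6 (Psmb2) in stimulated cells. In unstimulated cells it ran from 16.0 (Psmb7) to 29.5 (Psmb4), so the levels of these genes were not closer together in stimulated cells. In the alpha ring the same SD was 0.828, 0.824 and 0.793 in stimulated libraries and 0.790, 0.829 and 0.818 in unstimulated libraries, and these overlapped.

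**Figure D3:**
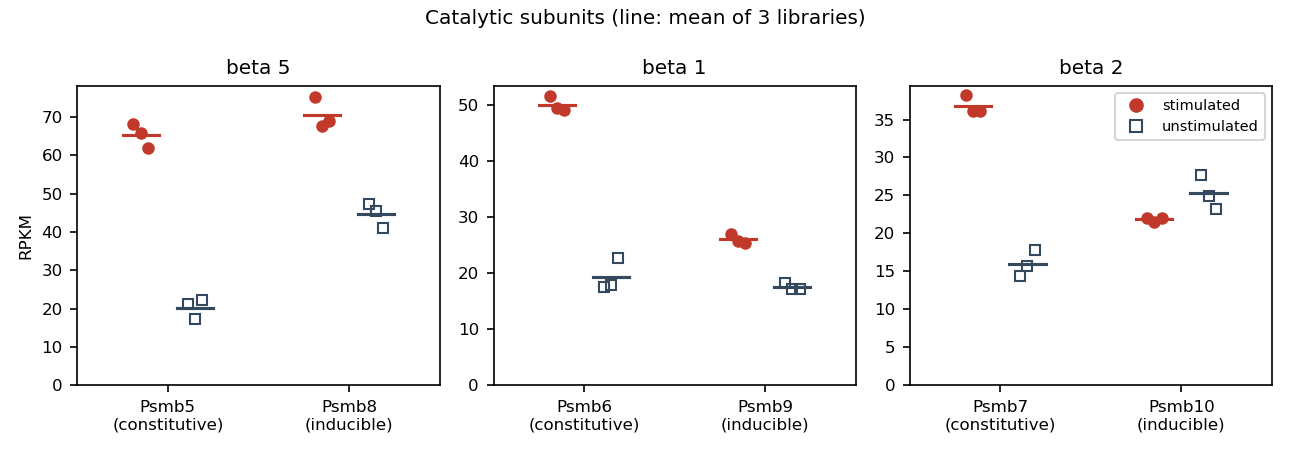
RPKM of the constitutive catalytic genes Psmb5, Psmb6 and Psmb7 and of their inducible counterparts Psmb8, Psmb9 and Psmb10, in the 3 stimulated (circles) and 3 unstimulated (squares) libraries, with a line at the mean. The constitutive genes rose by 1.16 to 1.65 on the log2 scale, while Psmb8 and Psmb9 rose by 0.65 and 0.54, and Psmb10 was at -0.20, a value that turned positive with median centring.

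The inducible counterparts of the catalytic subunits changed with smaller values. Psmb8, which replaces Psmb5, averaged 70.6 ± 4.06 RPKM in stimulated cells and 44.6 ± 3.12 RPKM in unstimulated cells (SD, n = 3 each), a log2 fold change of 0.65 with a limma adjusted p of 0.00019. Psmb9, which replaces Psmb6, averaged 26.0 ± 0.79 RPKM in stimulated cells and 17.6 ± 0.65 RPKM in unstimulated cells (SD, n = 3 each), a log2 fold change of 0.54 with a limma adjusted p of 0.00011. Psmb10, which replaces Psmb7, averaged 21.8 ± 0.33 RPKM in stimulated cells and 25.3 ± 2.28 RPKM in unstimulated cells (SD, n = 3 each), a log2 fold change of -0.20 with a limma adjusted p of 0.039. The call for Psmb10 is not settled: median centring gave 0.06 (limma adjusted p = 0.61), and the call was also lost without any 1 library other than unstimulated replicate 3. Each inducible gene had a smaller log2 fold change than the constitutive gene it replaces. The Psmb8 to Psmb5 ratio was 1.10, 1.03 and 1.11 in stimulated libraries, against 2.22, 2.64 and 1.86 in unstimulated libraries. The Psmb9 to Psmb6 ratio was 0.521, 0.520 and 0.517 in stimulated libraries, against 1.05, 0.956 and 0.759 in unstimulated libraries. The Psmb10 to Psmb7 ratio was 0.575, 0.594 and 0.610 in stimulated libraries, against 1.93, 1.58 and 1.30 in unstimulated libraries. In all 3 pairs the stimulated libraries had the lower ratio without overlap, and the log2 ratio differed by -1.04, -0.81 and -1.42. Each had p = 0.1 in a two-sided exact permutation test (0.1 after adjustment over the 3 pairs), the smallest value that 3 libraries against 3 allow. B cell and myeloid markers were far higher in the unstimulated libraries, as given above, and their part in these ratios was not tested.

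All 17 cap genes that the name rule covers rose, by a median of 1.10 on the log2 scale. They summed to 690, 676 and 648 RPKM in stimulated libraries, against 271, 286 and 332 RPKM in unstimulated libraries, a ratio of means of 2.26. The base holds the ATPases Psmc1 to Psmc6, which unfold the substrate, and the large scaffold proteins Psmd1 and Psmd2, which dock ubiquitin-carrying factors. All 8 base genes rose, between 0.81 and 1.41 on the log2 scale. Psmc6 was the highest base gene and rose most, with 80.2, 84.2 and 78.6 RPKM in stimulated libraries, against 25.9, 29.9 and 34.5 RPKM in unstimulated libraries (log2 fold change 1.41 ± 0.10, SE; limma adjusted p = 2.6e-05). Psmd2 had 64.7, 61.7 and 57.8 RPKM in stimulated libraries, against 24.3, 24.8 and 28.3 RPKM in unstimulated libraries (log2 fold change 1.22 ± 0.08, SE; limma adjusted p = 1.4e-05). For both genes every stimulated library was higher than every unstimulated one. Psmd1 had 24.0, 21.8 and 22.2 RPKM in stimulated libraries, against 7.48, 8.32 and 10.6 RPKM in unstimulated libraries (log2 fold change 1.29 ± 0.12, SE; limma adjusted p = 7.3e-05). Psmc3 rose least of the ATPases, with 38.9, 35.8 and 34.1 RPKM in stimulated libraries, against 18.4, 19.4 and 23.2 RPKM in unstimulated libraries (log2 fold change 0.81 ± 0.10, SE; limma adjusted p = 0.00025). Psmc2 was the least abundant base gene in stimulated and unstimulated cells, at 17.9, 18.1 and 16.4 RPKM in stimulated libraries, against 7.10, 7.49 and 10.0 RPKM in unstimulated libraries. It rose by 1.02 on that scale, but its summed allelic reads, 285 over the 3 stimulated and 241 over the 3 unstimulated libraries, gave a log2 fold change of -0.19 that did not pass (edgeR with TMM, adjusted p = 0.57). The direction of Psmc2 therefore differs between the 2 measures. Psmc1, Psmc4 and Psmc5 rose by 1.22, 0.99 and 1.09 on the log2 scale of RPKM.

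All 8 lid genes that the name rule covers rose, between 0.78 and 1.41 on the log2 scale. Shfm1, a small lid subunit outside that rule, fell, as given below. Psmd14, the metalloprotease that cuts ubiquitin chains off the substrate, had 44.7, 45.3 and 43.7 RPKM in stimulated libraries, against 18.5, 18.8 and 23.9 RPKM in unstimulated libraries (log2 fold change 1.10 ± 0.10, SE; limma adjusted p = 7.1e-05). Its partner subunit Psmd7 had 34.5, 34.2 and 31.1 RPKM in stimulated libraries, against 9.49, 12.5 and 14.3 RPKM in unstimulated libraries (log2 fold change 1.40 ± 0.14, SE; limma adjusted p = 9.6e-05). Psmd3, a structural lid subunit, had 41.3, 40.5 and 38.5 RPKM in stimulated libraries, against 14.3, 13.3 and 16.0 RPKM in unstimulated libraries (log2 fold change 1.41 ± 0.08, SE; limma adjusted p = 7.5e-06). The groups of all 3 genes were apart. Psmd12 and Psmd8 rose by 1.40 and 1.32, and Psmd11 and Psmd13 by 0.96 and 0.93, on the log2 scale. Psmd6, another structural subunit, had the smallest lid change, with 29.1, 26.1 and 25.4 RPKM in stimulated libraries, against 14.5, 14.3 and 17.1 RPKM in unstimulated libraries (log2 fold change 0.78 ± 0.09, SE; limma adjusted p = 0.0002). Its summed allelic reads went the other way, with 478 reads over the stimulated and 506 over the unstimulated libraries and a log2 fold change of -0.53 that passed as lower (edgeR with TMM, adjusted p = 0.025). Psmd4, the ubiquitin receptor between base and lid, also differed between the measures. It had 29.8, 29.0 and 29.4 RPKM in stimulated libraries, against 19.1, 18.3 and 20.7 RPKM in unstimulated libraries (log2 fold change 0.58 ± 0.06, SE; limma adjusted p = 0.00014), but it had 380 allelic reads over the stimulated and 335 over the unstimulated libraries, a log2 fold change of -0.28 that did not pass (edgeR with TMM, adjusted p = 0.22) and, with library sizes alone, -0.52, which passed as lower (edgeR adjusted p = 0.038). Psmc2, Psmd4 and Psmd6 were covered by few allelic reads for their RPKM, and their direction is not settled between the measures.

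The rank order of levels was similar, not identical, in stimulated and unstimulated cells. Across the 14 tested core genes the Spearman correlation between mean RPKM in stimulated and in unstimulated cells was 0.92, and across the 17 cap genes it was 0.89, with lower values within the 6 ATPases (0.77) and the 8 lid genes (0.67), as a description over genes whose values come from the same 6 libraries. The SD of the log2 fold change between genes was 0.27 in the core and 0.25 in the cap, against 0.43 over all tested members and 1.28 over all tested genes.

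**Figure D4:**
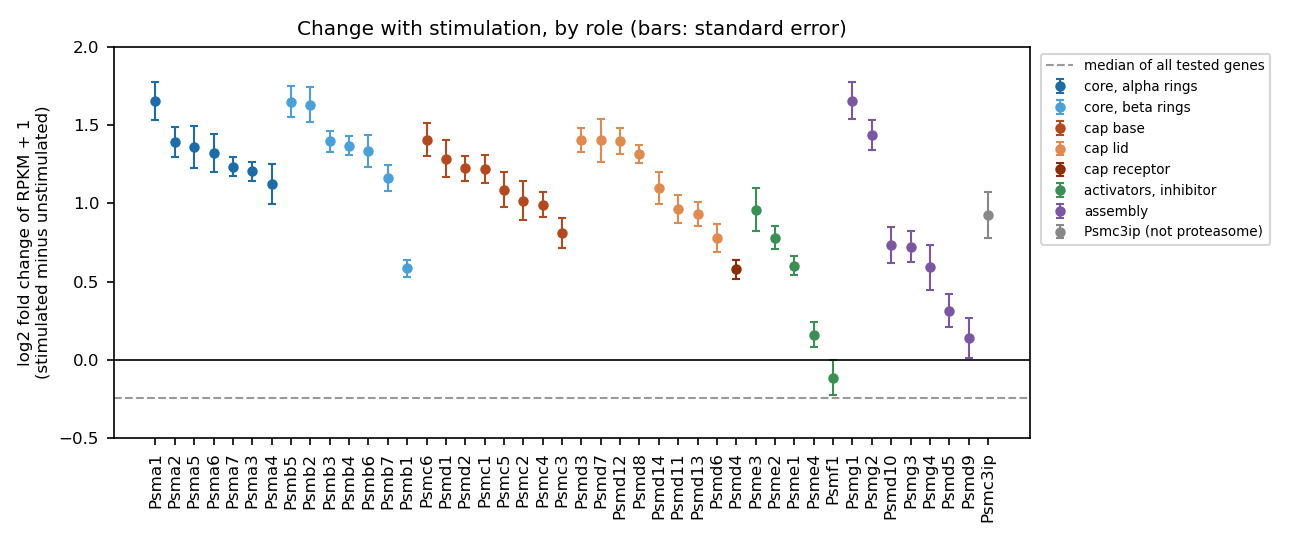
Log2 fold change of RPKM (stimulated over unstimulated, with SE) for the 44 tested members, coloured by role, with the median of all tested genes as a dashed line. All core and cap genes among these members lie at 0.58 or above, while the activators, the inhibitor and the assembly chaperones run from -0.11 to 1.66.

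The activators rose in part, and the inhibitor did not pass. Of 5 tested genes 3 rose and 2 did not pass, with a median log2 fold change of 0.60 and a ratio of summed RPKM of 1.61. Psme1 and Psme2 form the interferon-inducible ring that opens the core. Psme1 had 74.1, 74.3 and 77.7 RPKM in stimulated libraries, against 48.0, 52.7 and 47.4 RPKM in unstimulated libraries (log2 fold change 0.60 ± 0.06, SE; limma adjusted p = 0.00011). Psme2 had 61.7, 56.7 and 53.9 RPKM in stimulated libraries, against 34.5, 33.8 and 30.8 RPKM in unstimulated libraries (log2 fold change 0.78 ± 0.07, SE; limma adjusted p = 7.9e-05). Neither gene overlapped between the groups, and its close copy Psme2b was listed at 0 in all 6 libraries, so how the authors' counting treated reads shared by Psme2 and Psme2b bears on both. Psme3, the nuclear activator, had 87.0, 83.8 and 78.6 RPKM in stimulated libraries, against 35.2, 41.0 and 52.0 RPKM in unstimulated libraries (log2 fold change 0.96 ± 0.14, SE; limma adjusted p = 0.0006). Psme4, the large nuclear activator, had 19.8, 19.7 and 19.1 RPKM in stimulated libraries, against 15.8, 17.1 and 19.4 RPKM in unstimulated libraries, and the groups overlapped in unstimulated replicate 3. Its log2 fold change of 0.16 ± 0.08 (SE) did not pass (limma adjusted p = 0.11), but without that library it was 0.23 and passed (limma adjusted p = 0.0079). It also passed with median centring (0.42, limma adjusted p = 0.00038). Psmf1, an inhibitor of the core in vitro, had 6.41, 7.49 and 6.52 RPKM in stimulated libraries, against 6.80, 6.85 and 8.79 RPKM in unstimulated libraries, and the groups overlapped. Its log2 fold change of -0.11 ± 0.11 (SE) did not pass (limma adjusted p = 0.38), and its sign turned under other scalings.

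The assembly chaperones had the widest spread of changes of any class. Of 7 genes 6 rose and 1 did not pass, with log2 fold changes from 0.14 to 1.66. Psmg1 and Psmg2 form the dimer that builds the alpha ring, and both rose by more than the ring's median gene. Psmg1 had 29.7, 30.3 and 25.7 RPKM in stimulated libraries, against 7.16, 8.36 and 9.70 RPKM in unstimulated libraries, a ratio of means of 3.40, the highest among the tested members (log2 fold change 1.66 ± 0.12, SE; limma adjusted p = 2.1e-05). Psmg2 had 37.1, 37.1 and 33.5 RPKM in stimulated libraries, against 11.2, 12.4 and 14.4 RPKM in unstimulated libraries (log2 fold change 1.43 ± 0.10, SE; limma adjusted p = 1.8e-05). The other alpha ring dimer, Psmg3 and Psmg4, rose with smaller values. Psmg3 had 3.00, 2.61 and 2.71 RPKM in stimulated libraries, against 1.52, 1.13 and 1.22 RPKM in unstimulated libraries (log2 fold change 0.72 ± 0.10, SE; limma adjusted p = 0.00046). At this low level the log2(RPKM + 1) scale understates the change. The ratio of means for Psmg3 was 2.15, and its log2 fold change ran from 0.67 to 1.59 over the alternatives. Psmg4 had 16.2, 15.6 and 14.2 RPKM in stimulated libraries, against 12.0, 10.1 and 7.80 RPKM in unstimulated libraries (log2 fold change 0.59 ± 0.14, SE; limma adjusted p = 0.0078). Psmd5, Psmd9 and Psmd10 escort the ATPases of the base, and their levels were low. Psmd10, also known as gankyrin and the only X-linked member, had 6.39, 7.11 and 7.71 RPKM in stimulated libraries, against 4.41, 3.26 and 3.94 RPKM in unstimulated libraries (log2 fold change 0.73 ± 0.11, SE; limma adjusted p = 0.00088). Psmd5 had 6.98, 6.69 and 6.72 RPKM in stimulated libraries, against 4.58, 5.10 and 6.25 RPKM in unstimulated libraries (log2 fold change 0.31 ± 0.11, SE; limma adjusted p = 0.030). This call did not hold when any 1 library other than unstimulated replicate 3 was left out. Psmd9 had 2.02, 1.95 and 1.78 RPKM in stimulated libraries, against 1.28, 1.63 and 2.11 RPKM in unstimulated libraries, and the groups overlapped (log2 fold change 0.14 ± 0.13, SE; limma adjusted p = 0.35). It passed as higher under other scalings, at 0.40 with median centring (limma adjusted p = 0.0084) and 0.64 on summed allelic reads (edgeR with TMM, adjusted p = 0.0051). On the annotation 25.5% of its exon length lies on Gm26745, a long noncoding RNA of the opposite strand.

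The 3 members without a test were near or at 0. Psma8, the alpha subunit of testis proteasomes, had 0.0519, 0.0436 and 0.0194 RPKM in stimulated libraries, against 0.0361, 0.139 and 0.157 RPKM in unstimulated libraries. Psmb11, the catalytic subunit of thymic cortical epithelium, was listed at 0 throughout, as was Psme2b. Psmc3ip, which is no proteasome gene, had 2.90, 2.82 and 3.25 RPKM in stimulated libraries, against 1.13, 0.734 and 1.52 RPKM in unstimulated libraries (log2 fold change 0.92 ± 0.15, SE; limma adjusted p = 0.00098). Of its exon length 21.2% lies on exons of Mlx on the opposite strand, and strand counting is unknown here too. Without it, 40 of 43 tested members rose, with a median log2 fold change of 1.16.

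Proteins that work with the proteasome but carry other names moved in both directions. Of 16 associated genes 11 rose and 5 fell, against 31.2% and 48.9% of all tested genes, and the median log2 fold change was 0.64. Of the 5, Ube3c and Ubqln2 did not pass with median centring (limma adjusted p = 0.064 and 0.095). Pomp, the chaperone of beta ring assembly, had 21.8, 21.3 and 20.3 RPKM in stimulated libraries, against 8.02, 7.01 and 9.11 RPKM in unstimulated libraries (log2 fold change 1.29, limma adjusted p = 2.4e-05). The deubiquitinases of the cap, Uchl5 and Usp14, rose by 1.32 and 1.25 on the log2 scale, and the ubiquitin receptor Adrm1 rose by 0.66. The sign for Adrm1 turned on summed allelic reads (-0.57, edgeR with TMM, adjusted p = 0.064). Among those that fell were Shfm1, a small lid subunit that the name rule does not cover, and the proteasome-binding proteins Zfand5 and Zfand2a. Shfm1 had 5.17, 5.33 and 5.44 RPKM in stimulated libraries, against 8.03, 10.8 and 10.2 RPKM in unstimulated libraries (log2 fold change -0.75, limma adjusted p = 0.00067). Zfand5 and Zfand2a fell by 0.94 and 1.32 on the log2 scale. In a list of 5 genes that control proteasome transcription, 2 rose and 3 fell, against the same shares of all tested genes. Nfe2l1, the transcription factor that induces proteasome genes when proteasome activity is short, averaged 34.0 ± 1.52 RPKM in stimulated cells and 17.7 ± 0.71 RPKM in unstimulated cells (SD, n = 3 each; log2 fold change 0.90, limma adjusted p = 1.6e-05). Vcp, the ATPase that draws Nfe2l1 out of the endoplasmic reticulum, rose by 1.13, whereas Ngly1 and Ddi2, which process Nfe2l1, fell by 0.84 and 0.79 on the log2 scale. Nfe2l2, the antioxidant-response relative of Nfe2l1, averaged 10.7 ± 1.02 RPKM in stimulated cells and 21.3 ± 2.02 RPKM in unstimulated cells (SD, n = 3 each; log2 fold change -0.94, limma adjusted p = 0.00011).

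Genes that make or activate ubiquitin moved in both directions. Uba1, the main ubiquitin-activating enzyme, had 152, 158 and 164 RPKM in stimulated libraries, against 58.9, 59.4 and 65.9 RPKM in unstimulated libraries (log2 fold change 1.35, limma adjusted p = 5.2e-06). The other activating enzyme, Uba6, rose by 0.42 on the log2 scale (limma adjusted p = 0.0014), and Rps27a, which encodes ubiquitin fused to a ribosomal protein, rose by 0.38 (limma adjusted p = 0.0033) but did not pass with quantile normalisation (0.02, limma adjusted p = 0.85). Ubb, a polyubiquitin gene, fell by 0.32 on the log2 scale (limma adjusted p = 0.0063) but did not pass with median centring (-0.06, limma adjusted p = 0.59).

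Allelic reads show whether both parental copies took part. A cast share is the percentage of a gene's allelic reads that came from the cast copy, and over autosomal genes it was 49.3% to 49.4% in all 6 libraries. It was tested for 43 members, all autosomal, that had at least 30 allelic reads in each group (edgeR quasi-likelihood, Benjamini-Hochberg adjustment over 12834 genes). The mean cast share ran from 34.1% to 68.4% over the members in stimulated cells and from 32.9% (Psmc3ip) to 60.0% in unstimulated cells, with a median of 49.6% in each. The alleles were unequal for 15 members in stimulated cells, 6 with more cast and 9 with more mus reads, against 37.6% of all tested genes. That count was 9, 10 and 10 without stimulated replicates 1, 2 and 3, and 11 with DESeq2. The alleles were unequal for 10 members in unstimulated cells, 3 with more cast and 7 with more mus reads, against 32.6% of all tested genes. The unstimulated count was 7 to 9 when 1 library was left out, and 1 of the 10 is Psmc3ip, which is no proteasome gene. The Psmc3ip call (edgeR adjusted p = 0.049) was lost without any 1 library and with DESeq2 (adjusted p = 0.056). The 7 members unequal in both groups leaned the same way in each: Psme2, Psmc1 and Psmb1 to cast, and Psme1, Psmd9, Psmc3 and Psmd2 to mus. In unstimulated cells the call was lost for Psmc1 without unstimulated replicate 1 (edgeR adjusted p = 0.085) and for Psmd9 without unstimulated replicate 2 (edgeR adjusted p = 0.076). The calls of Psme1 and Psmc3 were not followed singly when libraries were left out. For 25 members no difference was detectable at this depth in either group.

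The cast share changed with stimulation for 2 members, Psme2 and Psmb1, against 10.2% of all tested genes. Psme2 (chr14:55587441-55591113 on mm10) had a cast share of 67.4%, 68.9% and 68.8% in stimulated libraries, against 58.6%, 59.7% and 54.8% in unstimulated libraries. The groups did not overlap, with 2140 to 2459 allelic reads per stimulated and 637 to 827 per unstimulated library, and the log2 ratio of cast to mus reads differed by 0.66 (edgeR adjusted p = 0.0012). In reads per M allelic reads, the cast copy had 96.7, 90.7 and 83.5 in stimulated libraries and 40.8, 39.6 and 31.8 in unstimulated libraries, a ratio of means of 2.42. The mus copy had 46.8, 40.9 and 37.9 in stimulated libraries and 28.8, 26.8 and 26.2 in unstimulated libraries, a ratio of 1.54. Both copies were thus higher in stimulated cells, the cast copy by more. Its neighbour and partner Psme1 (chr14:55578123-55581529 on mm10) leaned to mus, with 44.4%, 44.4% and 44.2% cast in stimulated libraries, against 43.6%, 44.9% and 44.5% in unstimulated libraries. The change there was 0.00 on the log2 scale.

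Psmb1 (chr17:15475021-15499751 on mm10) changed the other way, towards equal shares. Its cast share was 56.2%, 54.7% and 54.3% in stimulated libraries, against 60.4%, 59.3% and 60.1% in unstimulated libraries, with 5298 to 6788 allelic reads per stimulated and 1928 to 2594 per unstimulated library. The groups did not overlap, and the log2 ratio of cast to mus reads differed by -0.29 (edgeR adjusted p = 0.013). In the same unit the mus copy averaged 155.8 in stimulated cells and 83.3 in unstimulated cells, a ratio of 1.87, and the cast copy 190.9 in stimulated cells and 124.7 in unstimulated cells, a ratio of 1.53. The call did not hold without stimulated replicate 2 (edgeR adjusted p = 0.056) or without stimulated replicate 3 (edgeR adjusted p = 0.059). Psmb7 had a cast share of 49.5%, 46.1% and 48.0% in stimulated libraries, against 52.7%, 51.3% and 53.3% in unstimulated libraries. The groups did not overlap, but the difference of -0.27 for Psmb7 did not pass (edgeR adjusted p = 0.079). Psmd3 had a cast share of 48.7%, 48.1% and 52.0% in stimulated libraries, against 46.6%, 42.9% and 47.0% in unstimulated libraries. Its difference of 0.23 did not pass (edgeR adjusted p = 0.12) but passed with the replicate number as a block (0.24, edgeR adjusted p = 0.047).

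**Figure D5:**
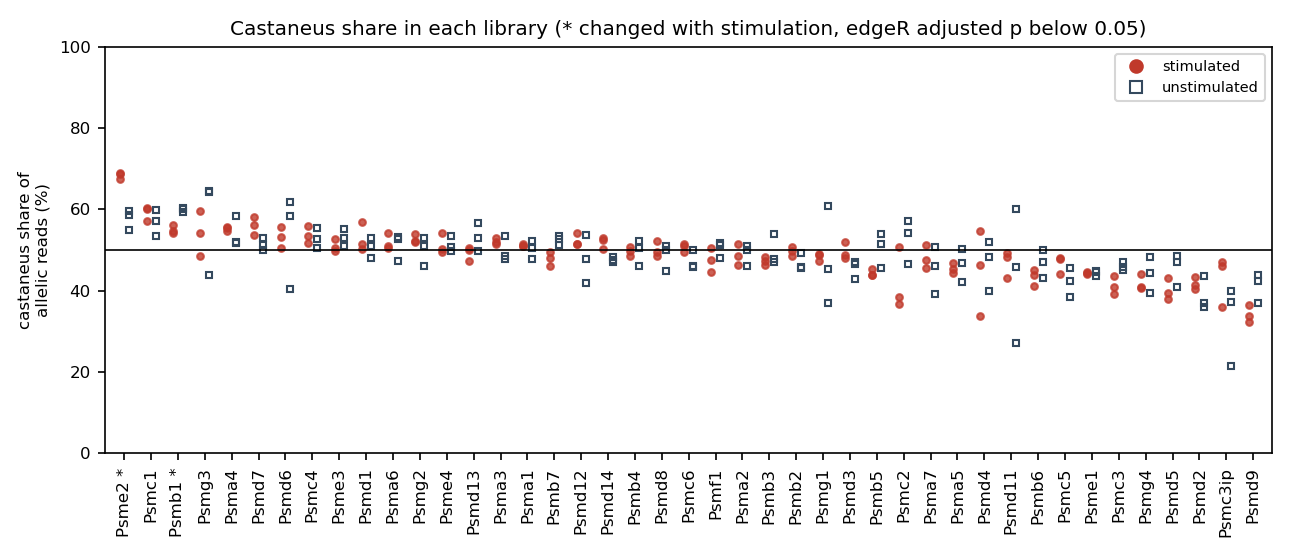
Cast share of allelic reads (percent) for the 43 tested members in the 3 stimulated (circles) and 3 unstimulated (squares) libraries, ordered by mean share, with stars on the 2 that changed. Psme2 lies at 67.4% to 68.9% in stimulated and 54.8% to 59.7% in unstimulated libraries, and Psmb1 at 54.3% to 56.2% in stimulated and 59.3% to 60.4% in unstimulated libraries.

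Among the members that leaned to mus, Psmd9 had the lowest cast share of stimulated cells, at 36.3%, 33.8% and 32.1% in stimulated libraries, against 42.4%, 36.9% and 43.9% in unstimulated libraries, and its change did not pass. Psmd2 had 41.3%, 40.3% and 43.4% cast in stimulated libraries, against 36.9%, 35.9% and 43.5% in unstimulated libraries. Psmc3 had 41.0%, 43.7% and 39.1% in stimulated libraries, against 45.8%, 45.0% and 47.0% in unstimulated libraries, which did not overlap but did not pass (edgeR adjusted p = 0.14). Among those that leaned to cast, Psmc1 had 57.2%, 60.4% and 60.0% in stimulated libraries, against 59.9%, 53.4% and 57.1% in unstimulated libraries, with overlap. The X-linked Psmd10 (chrX:140948429-140956728 on mm10) was too thinly covered for a test. Its 11 allelic reads over the 3 stimulated libraries were all from mus, as were its 2 reads over the unstimulated libraries. The 0 cast reads of 11 allow a share of up to 27.3%, which covers counting error only.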

How the data were processed

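Per the submitters' processing notes, STAR 2.7.1a and featureCounts were used with the mm10 build. The authors deposited an RPKM table of both alleles together and a table of whole-number counts per gene for the mus and the cast allele, per the file headers. Not given in the sources used here are the gene annotation, the strand setting, the RPKM denominator and how reads were assigned to alleles. RPKM values do not keep the depth, so their precision rests on 3 libraries per group.

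The members and lists were chosen with earlier results of these data known. The genes named are members, plus genes of fixed lists of partners. Some genes of the ubiquitin list are not reported here. RPKM were tested as log2(RPKM + 1) with limma 3.58.1 (trend, R 4.3.3) on genes with at least 1 RPKM in at least 3 libraries. Allelic counts were tested with edgeR 4.0.16 (quasi-likelihood, a term for each library, allele by group), on genes with at least 30 allelic reads per group. The adjustment was Benjamini-Hochberg over all tested genes and the threshold 0.05. The ratios of inducible to constitutive genes were compared by exact permutation. The scripts were tested on simulated data. Alternatives were another pseudocount, other filters, scalings and tools (DESeq2 1.42.0 among them), a replicate block and leaving out each library.

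Same-numbered libraries deviated together in allelic data (correlations 0.28, 0.30 and 0.18 over 9043 genes), so the numbers may pair these libraries. In RPKM they did not (0.0060, 0.061 and 0.091 over 13288 genes). Libraries with different numbers were not compared in this way. A limit for 0 reads is 3 counts of the total. Positions come from GENCODE M21 and promoters from RefSeq, GRCm38.p6. Exons of 13 members overlap exons of another gene.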

Additional observations from a re-analysis of the deposited data

Results flagged for a closer look

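The response to stimulation differed between the alleles of 2 proteasome genes by the test of that difference. For Psme2 the log2 ratio of cast to mus reads was 0.66 higher in stimulated cells (edgeR adjusted p = 0.0012), and over the alternatives the value ran from 0.58 to 0.72, with edgeR or DESeq2 adjusted p from 5.3e-05 to 0.0078. For Psmb1 the ratio differed by -0.29 (edgeR adjusted p = 0.013), and over the alternatives the value ran from -0.32 to -0.27, with edgeR or DESeq2 adjusted p from 0.0045 to 0.059. At an unadjusted p under 0.05, 7 of the 43 tested members and 2938 of the 12834 tested genes differed.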

How the results depend on the processing

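Of the 44 tested members, 37 kept their direction and their side of the threshold under every alternative that was run for the fold changes, and the number called changed ran from 40 to 43. The sign of Psmf1 turned, to 0.15 with median centring, 0.12 with quantile normalisation, and 0.25 (edgeR, TMM), 0.0063 (edgeR, library sizes alone) and 0.22 (DESeq2) on summed allelic counts. On those counts, in the same order of the 3 fits, Psmd4 was at -0.28, -0.52 and -0.31, Psmc2 at -0.19, -0.43 and -0.22, and Psmd6 at -0.53, -0.76 and -0.55. The cause was not tested. Psmd5 lost its call without any 1 of the libraries other than unstimulated replicate 3. Psmd9 and Psme4 passed with median centring (0.40 and 0.42) with quantile normalisation (0.75 and 0.19), and on summed counts with edgeR and TMM (0.64 and 0.38) and with DESeq2 (0.61 and 0.35). Of all tested genes 4148 were called higher and 6494 lower, against 5432 and 5206 with median centring, and 5247 and 5606 on summed counts with edgeR and TMM.

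Leaving out 1 library each, members with a changed cast share numbered 1 to 2, with 1 without stimulated replicate 2 or 3, where Psmb1 did not pass. Members biased to 1 allele in stimulated cells numbered 9 to 16, with 9 without stimulated replicate 1 and 10 without stimulated replicate 2 or 3, and in unstimulated cells 7 to 9. The log2 ratios of inducible to constitutive genes kept their sign throughout. For RPKM, where same-numbered libraries did not deviate together, a replicate block gave 10464 changed genes in place of 10642 and the same number of members, 41. In the allelic data, where same-numbered libraries did deviate together, the block gave 3 members with a changed cast share in place of 2, Psmd3 being added. Members biased to 1 allele numbered 15 in stimulated cells and 12 in unstimulated cells under the block, with Psma7 and Psme3 added to the 10 of unstimulated cells. Apart from these, the block changed no call. The paired exact sign-flip test of the ratios gave p = 0.25, the smallest that 3 pairs allow. Psmd10 and Psma8 had too few allelic reads for a test, and depth also limits the thinly covered Psmc3ip, Psmc2 and Psmd11, with 144, 241 and 245 reads over the unstimulated libraries.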
